A study of Rattus norvegicus with 30 samples.

Results

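The prostanoid receptors are the cell surface receptors for prostaglandins and thromboxane. The genes were taken by symbol from the count table of rat plantaris tendons, and all 7 listed for this family were found among 13124 genes: Ptger1, Ptger2, Ptger3 and Ptger4 for prostaglandin E2, Ptgir for prostacyclin, Ptgfr for prostaglandin F2α and Tbxa2r for thromboxane. The receptors for prostaglandin D2 were not analysed here. The tendons came from adult male Sprague Dawley rats, 3 months old, in which the plantaris tendon of each leg was cut and sutured and the Achilles tendon was spared. The rats were then given the HPGDS inhibitor GSK2894631A by oral gavage 2 times a day at 0, 2 or 6 mg/kg, where 0 mg/kg was the vehicle, and each tendon, from the right leg of a different rat, was taken after 7 or 21 days (7D and 21D). There were 5, 4 and 3 tendons at 7D for 0, 2 and 6 mg/kg, 5 tendons for each dose at 21D, and 3 control tendons from rats given neither surgery nor the compound. The question for these genes is how their transcripts differed between uninjured and repaired tendon, between 7D and 21D, and between doses of the inhibitor.

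Prostanoids are lipid signals made from arachidonic acid by the cyclooxygenases Ptgs1 and Ptgs2 and a terminal synthase for each product. HPGDS is a terminal synthase for prostaglandin D2, so the inhibitor acts on a different branch from the ligands of the receptors described here. The receptors couple to G proteins. The products of Ptger2 (EP2), Ptger4 (EP4) and Ptgir (IP) raise cAMP through Gs, those of Ptger1 (EP1), Ptgfr (FP) and Tbxa2r (TP) raise calcium, with Gq as the main partner for FP and TP, and that of Ptger3 (EP3) lowers cAMP through Gi. In injured tissue prostaglandin E2 is known for its part in pain, swelling and the behaviour of macrophages, and EP3 is abundant in fat cells.

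The start regions of 3 members are shown because their transcripts moved most: Ptger2 differed most from control tendon, and Ptger3 and Ptgfr fell between 7D and 21D. Each run covers 250 bases before and 50 bases after the RefSeq start, and capitals mark matches on either strand to the GC box (GGGCGG) or the core of an ETS site (GGAAG).
Ptger2 (GRCr8, chr15:20696796-20697095, plus strand): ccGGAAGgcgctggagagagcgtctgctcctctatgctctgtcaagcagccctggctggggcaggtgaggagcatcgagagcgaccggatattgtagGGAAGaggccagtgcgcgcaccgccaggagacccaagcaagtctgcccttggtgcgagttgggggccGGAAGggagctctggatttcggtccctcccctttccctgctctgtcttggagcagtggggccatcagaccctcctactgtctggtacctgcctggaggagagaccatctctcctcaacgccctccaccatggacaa
Ptger3 (GRCr8, chr2:249264832-249265131, plus strand): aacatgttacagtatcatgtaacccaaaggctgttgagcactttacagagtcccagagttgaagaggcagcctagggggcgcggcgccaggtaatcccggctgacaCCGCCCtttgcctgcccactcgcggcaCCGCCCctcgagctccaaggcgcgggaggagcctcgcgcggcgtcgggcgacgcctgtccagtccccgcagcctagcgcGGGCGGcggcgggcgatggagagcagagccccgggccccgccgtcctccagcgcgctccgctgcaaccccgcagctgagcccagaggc
Ptgfr (GRCr8, chr2:243425574-243425873, minus strand): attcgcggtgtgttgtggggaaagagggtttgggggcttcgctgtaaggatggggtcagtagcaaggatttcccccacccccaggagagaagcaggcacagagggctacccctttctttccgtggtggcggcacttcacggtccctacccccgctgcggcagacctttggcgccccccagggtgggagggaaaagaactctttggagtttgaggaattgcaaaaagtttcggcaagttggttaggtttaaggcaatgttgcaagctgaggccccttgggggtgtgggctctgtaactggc
The Ptger3 region was rich in CpG, with 32 CpG sites and 69.7% G or C, against medians of 7 sites and 51.7% over 33469 promoters of the same length. Ptger2 and Ptgfr held 13 and 10 CpG sites. Ptger3 held 3 GC boxes, a motif found in 33.1% of all promoters, and Ptger2 held 3 ETS cores, found in 70.1%. Ptgfr held neither. The other motifs searched on both strands were the TATA box (TATAAA), the E box (CACGTG), the cyclic AMP response element (TGACGTCA) and its core (TGACG, which lies inside it), the AP-1 site (TGANTCA) and the C/EBP core (TTGCG), and none was found in the 7 promoters. The CCAAT box (CCAAT) was found in Ptger1 alone among them and in 37.5% of all promoters. These are letter matches in 1 window per gene and say nothing of binding. The reads were counted on the RN6 genome, so the GRCr8 positions belong to the sequences and not to the counts.

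Counts on the genes listed totalled 12405741 to 49909374 per tendon. A floor of 3 counts stood at 0.0601 to 0.242 per 1000000 of these totals, without TMM scaling. Levels below are in CPM (counts per 1000000) scaled by TMM. Nothing in the labels says more of the tendons within a group than a replicate number, and p-values measure the spread between these tendons. Skeletal muscle genes (23 of 28 of a fixed list were measured, none at 0 in a whole group) made up 19.2 to 27.3% of counts in the controls, 0.168 to 1.27% at 7D 0 mg/kg, 0.00885 to 0.0117% at 7D 2 and 6 mg/kg, and 0.0663 to 9.43% at 21D. Muscle content and injury cannot be told apart in any comparison with control tendons. The same holds for muscle content and dose between 0 mg/kg and the other doses at 7D. In whole tissue a fall in the number of cells of a type cannot be told from less RNA per cell. The tendon list (Scx, Mkx, Tnmd and 5 other genes) summed to 1003 to 5961 CPM, with no gene at 0 in a whole group. Values are compared within a gene only, since the exon length of each gene was not used.

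Compared to control tendons, most of the receptors were higher at 7D and fewer at 21D. All 6 receptors that passed the filter on low counts (3 CPM or more as the mean of any group) had a higher fitted level at each dose at 7D. In edgeR's quasi-likelihood test, with p adjusted by Benjamini-Hochberg over 12558 genes, 5 of 6 were higher at 7D 0 mg/kg, where 35.8% of all genes were higher. The counts were 6 of 6 at 7D 2 mg/kg and 6 of 6 at 7D 6 mg/kg, beside 35.8% and 34.1% of all genes. At 21D they were 4, 4 and 3 of 6 at 0, 2 and 6 mg/kg, beside 32.2%, 33.8% and 30.8%. No receptor was lower at an adjusted p under 0.05 in these 6 comparisons, where 35.6%, 34.0% and 33.8% of all genes were lower at 7D and 33.7%, 35.3% and 33.3% at 21D. Every tendon of the repaired group lay above every control tendon for 5, 4 and 6 of the 6 receptors at 7D, beside 31.2%, 30.1% and 34.6% of all genes, and for 5, 3 and 3 at 21D, beside 25.0%, 29.5% and 25.9%. The median log2 fold change of the 6 receptors was 1.5, 1.71 and 2.04 at 7D and 0.66, 0.79 and 0.55 at 21D, against smaller medians over all genes, of 0.01 to 0.05. Ptger2, Ptger3 and Ptger4 had means under 3 CPM in control tendons and passed the filter through repaired tendons, so these counts describe the receptors and do not stand as support. The 6 comparisons share the same 3 control tendons, and scaling by library size alone gave medians over all genes of 0.51 to 0.64 on the log2 scale in place of 0.01 to 0.05.

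**Figure D1:**
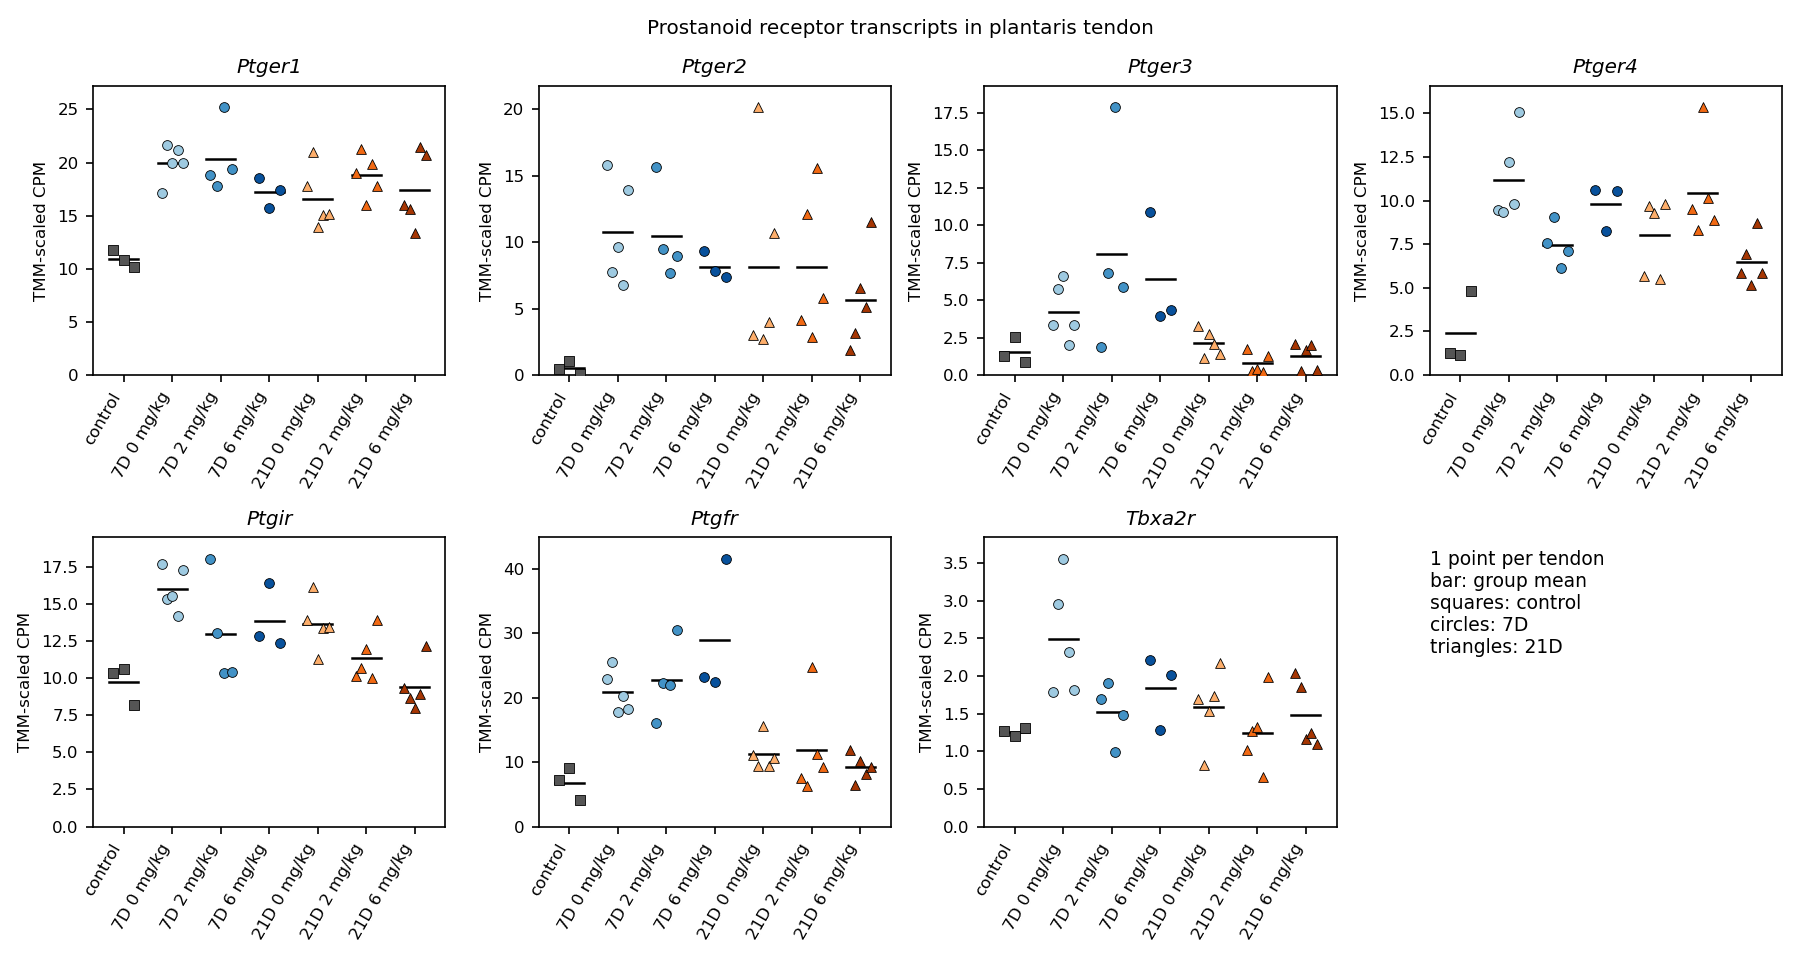
TMM-scaled CPM of each receptor gene (vertical axis, from 0) in each tendon, by group (horizontal axis), with 1 point per tendon and a bar at the group mean. Every repaired tendon was above all 3 control tendons for Ptger1, Ptger2 and Ptger4, and Ptger3 and Ptgfr were lower at 21D than at 7D in most tendons.

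**Figure D2:**
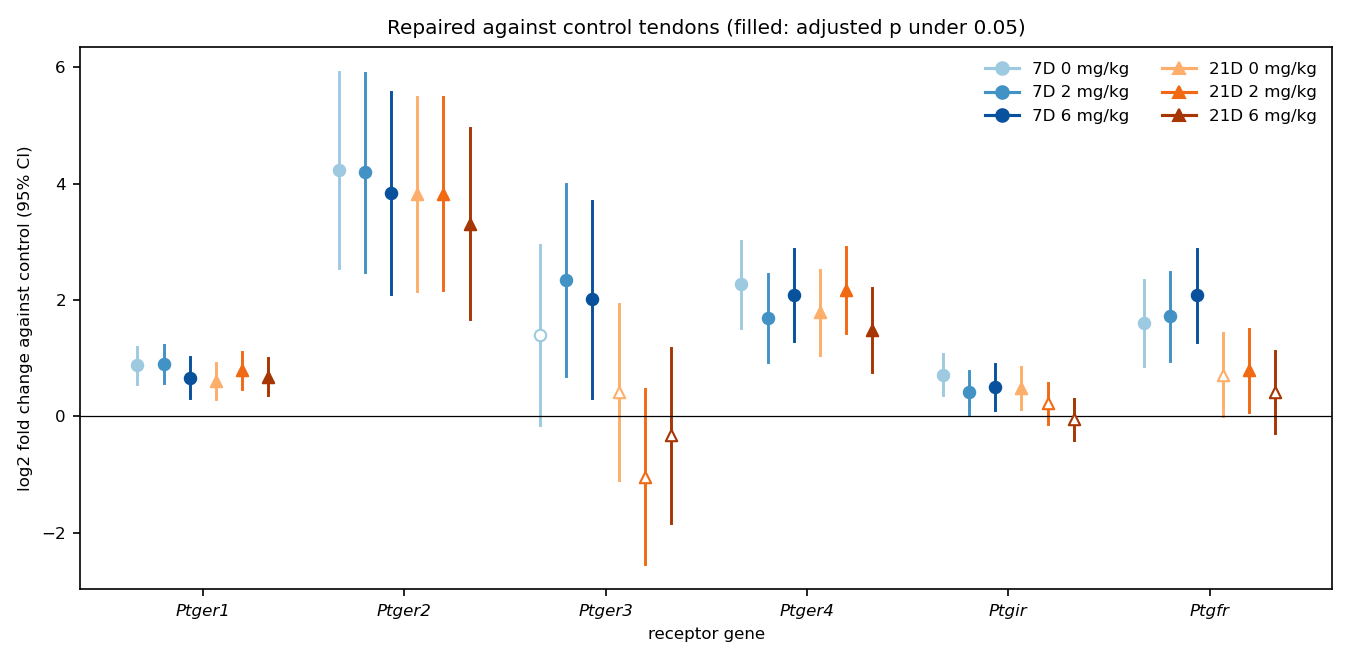
Log2 fold change against control tendons (vertical axis) for the 6 receptors tested (horizontal axis), with 95% confidence intervals and filled symbols where the adjusted p was under 0.05. Ptger2 had the widest intervals and values from 3.31 to 4.24, while Ptger3 lay above 0 at 7D and between -1.04 and 0.42 at 21D.

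Ptger2 (ENSRNOG00000050968, chromosome 15 of RN6) encodes EP2, through which prostaglandin E2 raises cAMP in macrophages, smooth muscle and other cells. Its transcript was barely detected in control tendons, at 0.425, 1.04 and 0.0817 CPM from 9, 26 and 1 counts. At 7D 0 mg/kg the 5 tendons held 15.8, 7.78, 9.62, 6.75 and 13.9 CPM. Every repaired tendon was above every control tendon, and the least difference lay between 1.90 CPM in a 21D 6 mg/kg tendon and 1.04 CPM in a control tendon.

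The other groups at 7D lay in the same range, with 15.7, 9.48, 7.70 and 8.93 CPM at 2 mg/kg and 9.30, 7.80 and 7.39 CPM at 6 mg/kg. At 21D the tendons spread far apart at each dose. At 0 mg/kg they held 3.01, 20.1, 2.68, 4.0 and 10.7 CPM, at 2 mg/kg 4.13, 12.1, 2.84, 15.6 and 5.79 CPM, and at 6 mg/kg 1.90, 3.19, 6.59, 5.13 and 11.5 CPM. Over all doses the range was 6.75 to 15.8 CPM at 7D (n = 12) and 1.90 to 20.1 CPM at 21D (n = 15).

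Relative to the controls, Ptger2 had a log2 fold change of 4.24 ± 0.82 (SE) at 7D 0 mg/kg, or 18.9-fold, with an adjusted p of 6.2e-05 in edgeR. It was 4.2 ± 0.83 and 3.84 ± 0.84 at 7D 2 and 6 mg/kg, and 3.82 ± 0.81, 3.83 ± 0.81 and 3.31 ± 0.80 at 21D. The size rests on few counts in the controls, and with 1 tendon left out the value at 7D 0 mg/kg ran from 3.79 to 5.25, the highest without control replicate 3. At 21D 0 mg/kg it ran from 3.15, without replicate 2 of that group, to 4.83, without control replicate 3. In the 6 comparisons limma-voom gave adjusted p of 0.0647 to 0.181. With the muscle share as a covariate the value was 0.98 (adjusted p = 0.613) at 7D 2 mg/kg and 0.68 (adjusted p = 0.729) at 7D 6 mg/kg in edgeR. The gene overlaps an uncharacterised RefSeq long non-coding RNA on the opposite strand, and whether counting used strand is not given in the sources used here.

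Ptger4 (ENSRNOG00000013240, chromosome 2 of RN6) encodes EP4, the other prostaglandin E2 receptor that raises cAMP. Control tendons held 1.27, 1.16 and 4.82 CPM, and the last of these lay far above the other two. At 7D the tendons held 9.44, 9.35, 12.2, 9.80 and 15.1 CPM at 0 mg/kg, 7.59, 9.06, 6.12 and 7.13 CPM at 2 mg/kg, and 10.6, 8.25 and 10.5 CPM at 6 mg/kg. All repaired tendons lay above the highest control tendon, the closest being 5.14 CPM at 21D 6 mg/kg.

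The 21D levels of Ptger4 were 8.00 ± 2.20, 10.4 ± 2.82 and 6.49 ± 1.4 CPM (mean ± SD, n = 5 each) at 0, 2 and 6 mg/kg. Relative to the controls its log2 fold change was 2.27 ± 0.36, 1.69 ± 0.36 and 2.08 ± 0.38 (SE) at 7D, with edgeR adjusted p of 5.27e-06, 0.000239 and 3.83e-05. At 21D it was 1.79 ± 0.36, 2.17 ± 0.36 and 1.49 ± 0.35, with adjusted p of 0.000117, 1.06e-05 and 0.000741. Ptger4 thus differed from control tendons in all 6 comparisons, and it did so as well when each tendon was left out in turn, with log2 values from 1.11 to 3.14. The highest of these came without control replicate 4, which gave 3.14 at 7D 0 mg/kg and 2.37 at 21D 6 mg/kg. With the muscle share as a covariate the values at 7D 2 and 6 mg/kg were 1.48 and 1.87, with edgeR adjusted p of 0.183 and 0.0907. This gene also overlaps a RefSeq long non-coding RNA on the opposite strand.

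Ptgir (ENSRNOG00000016756, chromosome 1 of RN6) encodes the prostacyclin receptor IP, known for vessel relaxation and inhibition of platelets. Control tendons held 10.4, 10.6 and 8.17 CPM. At 7D 0 mg/kg all 5 tendons lay above them, at 14.2 to 17.7 CPM, and the log2 fold change was 0.72 ± 0.17 (SE, edgeR adjusted p = 0.000759). At 2 mg/kg the tendons held 18.1, 13, 10.3 and 10.4 CPM and overlapped the controls, and the log2 fold change of 0.41 ± 0.18 passed narrowly (edgeR adjusted p = 0.0443).

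At 7D 6 mg/kg Ptgir held 12.9, 16.4 and 12.4 CPM, with a log2 fold change of 0.51 ± 0.19 (edgeR adjusted p = 0.022). At 21D it held 13.6 ± 1.74 CPM (SD, n = 5) at 0 mg/kg and was higher than control by 0.48 ± 0.17 (edgeR adjusted p = 0.0167), while the values at 2 and 6 mg/kg were 0.22 ± 0.17 and -0.05 ± 0.17 (adjusted p = 0.259 and 0.818). Without control replicate 4, the lowest for this gene, the values were 0.26 at 7D 2 mg/kg, 0.36 at 7D 6 mg/kg and 0.33 at 21D 0 mg/kg, with edgeR adjusted p of 0.262, 0.137 and 0.148. With the muscle share as a covariate no Ptgir call remained, with values of 0.49 (edgeR adjusted p = 0.0804) at 7D 0 mg/kg, -0.036 (0.959) at 7D 2 mg/kg, 0.063 (0.931) at 7D 6 mg/kg and 0.33 (0.162) at 21D 0 mg/kg. The call at 7D 2 mg/kg was kept by 4 of 10 alternatives to the main fit. Scaling by library size alone turned the 21D 6 mg/kg value to 0.44 (edgeR adjusted p = 0.0446).

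Ptger1 (ENSRNOG00000004094, chromosome 19 of RN6) encodes EP1, a receptor for prostaglandin E2 that raises calcium. It showed the tightest pattern of the family. The 3 control tendons held 10.1 to 11.7 CPM and the 27 repaired tendons 13.4 to 25.2 CPM, with no overlap in any group. The log2 fold change against control was 0.87 ± 0.15, 0.90 ± 0.16 and 0.67 ± 0.17 (SE) at 7D and 0.60 ± 0.15, 0.79 ± 0.15 and 0.68 ± 0.15 at 21D, or 1.52 to 1.86-fold.

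The edgeR adjusted p of Ptger1 ranged from 2e-05 to 0.0013 over the 6 comparisons. With the muscle share as a covariate it was 0.221 at 7D 2 mg/kg and 0.453 at 7D 6 mg/kg. Ptger1 lies 531 bases from Gipc1 in RefSeq.

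Ptgfr (ENSRNOG00000046468, chromosome 2 of RN6) encodes FP, the prostaglandin F2α receptor, best known from uterus and smooth muscle. Control tendons held 7.22, 9.10 and 4.08 CPM. At 7D it was 22.9, 25.5, 17.8, 20.3 and 18.2 CPM at 0 mg/kg, 16.0, 22.2, 22 and 30.4 CPM at 2 mg/kg, and 23.1, 22.4 and 41.5 CPM at 6 mg/kg. All 12 tendons at 7D lay above the control tendons.

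At 21D the Ptgfr levels were 11.1, 9.44, 15.7, 9.46 and 10.7 CPM at 0 mg/kg, 7.58, 6.35, 24.8, 11.3 and 9.27 CPM at 2 mg/kg, and 11.9, 6.46, 10.2, 8.12 and 9.20 CPM at 6 mg/kg. The groups at 2 and 6 mg/kg overlapped the controls, while the 0 mg/kg group did not. The log2 fold change against control was 1.61 ± 0.36, 1.72 ± 0.37 and 2.08 ± 0.39 (SE) at 7D, with edgeR adjusted p of 0.000315, 0.000237 and 4.95e-05, and 0.72 ± 0.35, 0.79 ± 0.35 and 0.42 ± 0.34 at 21D, with adjusted p of 0.0718, 0.0471 and 0.296. The call at 21D 2 mg/kg rested on replicate 3, at 24.8 CPM, and without it the value was 0.33 (edgeR adjusted p = 0.30). It was also lost without control replicate 2, control replicate 4 or 21D 2 mg/kg replicate 4, with values of 0.74, 0.48 and 0.81.

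Tbxa2r (ENSRNOG00000020585, chromosome 7 of RN6) encodes TP, the thromboxane receptor of platelets and smooth muscle. Its mean was under 3 CPM in every group, so it did not pass the filter and has no value in the main test. It was at 1.27, 1.2 and 1.31 CPM in control tendons and at 1.78, 2.96, 3.55, 2.32 and 1.81 CPM in 7D 0 mg/kg tendons. In the other groups tendons lay between 0.663 and 2.21 CPM, from 17 to 118 counts, and overlapped the controls.

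When all genes were tested with no filter, Tbxa2r was higher at 7D 0 mg/kg than in control tendons by 1.0 ± 0.35 on the log2 scale (SE, edgeR adjusted p = 0.013). The values in the other 5 groups were 0.02 to 0.57, with adjusted p of 0.187 to 0.957. Gipc3 lies 71 bases from this gene in RefSeq, on the other strand.

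Ptger3 (ENSRNOG00000010325, chromosome 2 of RN6) encodes EP3, the prostaglandin E2 receptor that lowers cAMP. It was low in control tendons, at 1.27, 2.53 and 0.899 CPM. At 7D the levels were 3.35, 5.73, 6.63, 2.00 and 3.35 CPM at 0 mg/kg, 1.88, 6.81, 17.9 and 5.85 CPM at 2 mg/kg, and 10.9, 3.94 and 4.35 CPM at 6 mg/kg. Tendons of a group lay far apart, and both the 0 and 2 mg/kg groups overlapped the controls.

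At 21D Ptger3 was at 3.27, 1.13, 2.77, 2.05 and 1.44 CPM at 0 mg/kg, 1.77, 0.287, 0.389, 0.183 and 1.29 CPM at 2 mg/kg, and 2.07, 0.261, 1.70, 1.98 and 0.354 CPM at 6 mg/kg. The 15 tendons fell into 2 sets, with 5 tendons of the 2 and 6 mg/kg groups at 0.183 to 0.389 CPM, from 8 to 13 counts, and 10 at 1.13 to 3.27 CPM. The log2 fold change against control was 1.4 ± 0.75 (SE, edgeR adjusted p = 0.0997), 2.34 ± 0.80 (adjusted p = 0.0122) and 2.01 ± 0.82 (adjusted p = 0.0337) at 7D. At 21D it was 0.42 ± 0.74, -1.04 ± 0.73 and -0.33 ± 0.73, with adjusted p of 0.212 to 0.708.

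The calls of Ptger3 at 7D rested on single tendons. At 2 mg/kg the call was lost without control replicate 2, control replicate 4 or 7D 2 mg/kg replicate 4 (2.14, 2.02 and 1.60 on the log2 scale), and at 6 mg/kg without control replicate 2, control replicate 4 or 7D 6 mg/kg replicate 1 (1.82, 1.71 and 1.38). Of 10 alternatives to the main fit, 8 kept the call at 2 mg/kg and 7 kept it at 6 mg/kg. With the muscle share as a covariate it was lost at both doses. At 6 mg/kg it was also lost under the replicate block (1.55, edgeR adjusted p = 0.101). At 0 mg/kg a fit of the compared groups alone gave 1.38 with an adjusted p of 0.035.

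Between 7D and 21D, Ptger3, Ptgfr and Ptgir were lower at the later time. Averaged over the 3 doses, Ptger3 fell by 2.23 ± 0.38 on the log2 scale (SE, edgeR adjusted p = 7.16e-05), Ptgfr fell by 1.16 ± 0.18 (adjusted p = 1.72e-05) and Ptgir fell by 0.33 ± 0.09 (adjusted p = 0.00646). Thus 3 of 6 receptors were lower, where 16.8% of all genes were lower, and none was higher, where 18.9% of all genes were. Ptger1, Ptger2 and Ptger4 had values of -0.12 ± 0.08, -0.44 ± 0.33 and -0.20 ± 0.17, with adjusted p of 0.242, 0.324 and 0.384. In the same comparison markers of many cell types moved, with 8 of 11 macrophage, 5 of 5 neutrophil, 7 of 8 T cell, 5 of 9 mast cell, 6 of 8 endothelial and 6 of 9 mural cell genes lower, and 23 of 23 skeletal muscle genes higher. Their part in the falls of Ptger3, Ptgfr and Ptgir was not tested.

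By dose, no receptor passed at 0 mg/kg in edgeR, where 5.35% of all genes changed. There Ptgfr had a log2 value of -0.89 ± 0.29 (edgeR adjusted p = 0.0662), 2 of the 6 had an unadjusted p under 0.05, and DESeq2, limma-voom and the replicate block each called 1, which was Ptgfr. At 2 mg/kg Ptger3 fell by 3.37 ± 0.69 (edgeR adjusted p = 0.00187) and Ptgfr fell by 0.93 ± 0.30 (adjusted p = 0.0421), beside 5.98% of all genes lower. At 6 mg/kg Ptgfr fell by 1.66 ± 0.33 (edgeR adjusted p = 0.00169), Ptger3 fell by 2.34 ± 0.69 (adjusted p = 0.0267) and Ptgir fell by 0.56 ± 0.17 (adjusted p = 0.0292), beside 4.55% of all genes lower.

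At 2 mg/kg Ptger3 was called with each tendon left out in turn, while Ptgfr was not called without 7D 2 mg/kg replicates 3, 4 or 5 or 21D 2 mg/kg replicates 1, 2, 4 or 5. At 6 mg/kg Ptgfr was called with each tendon left out in turn. There Ptger3 was not called without 7D 6 mg/kg replicate 1 or 21D 6 mg/kg replicates 2 or 5, and Ptgir was called only without 7D 6 mg/kg replicate 5 or 21D 6 mg/kg replicate 5. At 0 mg/kg Ptgfr was called without 21D 0 mg/kg replicate 3. With the muscle share as a covariate the averaged falls of Ptgfr and Ptgir were 1.11 and 0.10 on the log2 scale, with edgeR adjusted p of 0.0793 and 0.774. The averaged fall of Ptger3 was kept in all alternatives fixed at the start, by 1.98 or more when a tendon was left out.

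No receptor passed the test across doses. In edgeR 0 of 6 changed across the 3 doses at 7D, where 2.05% of all genes changed, and 0 of 6 at 21D, where 0% of all genes changed. The genes that changed at 7D included 20 of 23 skeletal muscle genes, so dose and muscle content cannot be told apart there. At an unadjusted p under 0.05 there were 0 at 7D and 1, Ptgir, at 21D, and DESeq2 and limma-voom also called 0 at either time. The interaction of dose with time was called for 0 of 6 receptors (2 at an unadjusted p under 0.05), beside 0.390% of all genes. For the counts at an unadjusted p, here and between the times, the share of all genes was not taken.

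Intervals show what these groups could resolve. For 6 against 0 mg/kg at 7D, Ptger1 differed by -0.21 on the log2 scale (95% CI -0.52 to 0.10) and Ptger2 by -0.40 (-1.69 to 0.89). At 21D, Ptgir differed by -0.53 (-0.84 to -0.23, edgeR adjusted p = 0.741), from 13.6 to 9.43 CPM, and Ptger4 by -0.30 (-0.86 to 0.27). For 2 against 0 mg/kg at 21D, Ptger3 differed by -1.46 (-2.77 to -0.14, edgeR adjusted p = 0.537). The intervals of Ptger2 and Ptger3 were the widest.

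The 7 receptors were next set against 12 lists of cell markers, using the mean log2 CPM of each list in each tendon, with 84 pairs at each time and 168 in all. At 7D 1 pair passed adjustment over the 168, and it was Ptger3 with the adipocyte list (Adipoq, Plin1, Cidec, Lep, Fabp4 and Pck1). The Pearson r was 0.914 (Spearman rho = 0.923) over 12 tendons, with an adjusted p of 0.00588 by a permutation test. At 21D the pair that passed was again Ptger3 with the adipocyte list, with r = 0.913 (rho = 0.921) over 15 tendons and an adjusted p of 0.00168 by a permutation test, from a raw p of 1e-05, the smallest that 100000 resamples give. The 21D value pools the 2 sets of Ptger3 levels described above. With the group mean of each dose subtracted, r was 0.905 at 7D and 0.894 at 21D.

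Leaving out the 2 tendons farthest from the median of the adipocyte list gave r = 0.848 at 7D, which no longer passed (permutation test, adjusted p = 0.131), and r = 0.858 at 21D (adjusted p = 0.0202). Within the 10 tendons of the upper set at 21D, a split made after seeing the data, r was 0.877 (rho = 0.867, permutation test, p = 0.00121). The lower set of 5 tendons was too small for a value of its own, and it also held low adipocyte levels, with mean log2 CPM of 2.27 to 3.86 against 3.72 to 5.72 in the upper set. With the summed CPM of the list in place of the mean of logs, r was 0.878 at 7D and 0.288 at 21D. Fabp4, which capillary cells also express, was the highest gene of that sum, with a median of 320 CPM at 21D. Its part in the lower r was not tested.

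**Figure D3:**
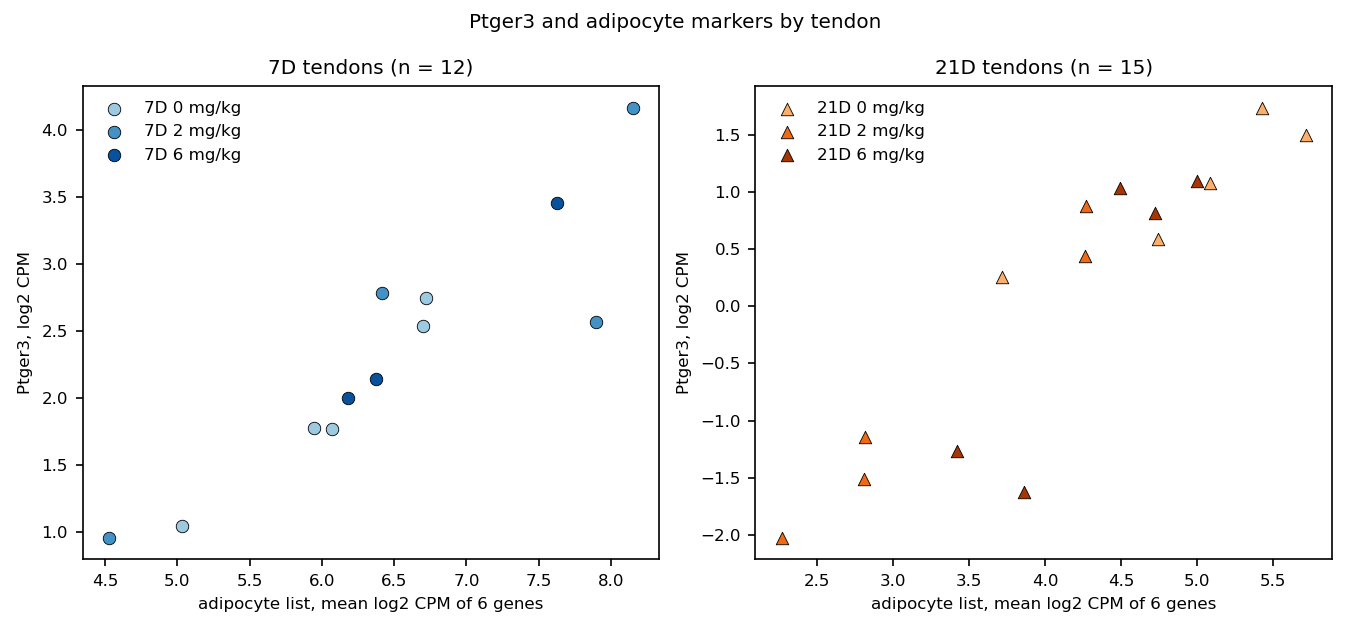
Log2 CPM of Ptger3 (vertical axis) against the mean log2 CPM of 6 adipocyte genes (horizontal axis), with 1 point per tendon at 7D (n = 12) and 21D (n = 15), coloured by dose. Ptger3 rose with the mean log2 level of the list at both times (r = 0.914 and 0.913, though r was 0.288 at 21D with the summed CPM), and 5 tendons at 21D form a set with low values of both.

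The adipocyte genes also moved with time. Adipoq, which encodes adiponectin, was at 78.5 to 757 CPM at 7D and 11.9 to 138 CPM at 21D, beside 38.3, 105 and 47.4 CPM in control tendons. All 6 genes of the list were lower at 21D than at 7D averaged over doses, Adipoq by 2.54 ± 0.33 and Plin1, which coats lipid droplets, by 2.69 ± 0.39 on the log2 scale (SE), beside 16.8% of all genes. The summed level of the list was 404 to 2529 CPM at 7D, 152 to 681 CPM at 21D and 157 to 565 CPM in control tendons, with no gene at 0 in a whole group. With the mean log2 level of the list as a covariate, an alternative chosen after seeing the data, Ptger3 differed between 21D and 7D by 0.03 ± 0.32 on the log2 scale (SE, edgeR adjusted p = 0.967). In the same fit its differences from control tendons ran from -0.33 to -0.07, with adjusted p of 0.476 to 0.877. This list had passed with Ptger3 in these same tendons and itself fell with time, so small values were likely beforehand. The part of fat cells in the fall of Ptger3 was not tested.

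The remaining pairs did not pass adjustment. At an unadjusted p under 0.05 there were 7 pairs at 7D and 21 at 21D, among them Tbxa2r with mast cells (r = 0.746) and Ptgfr with platelets (r = 0.678) at 21D and Ptgir with adipocytes at 7D (r = -0.757), with adjusted p of 0.093, 0.11 and 0.10 by permutation test. By Spearman's rho, Ptgfr with platelets at 21D had 0.811 and an adjusted p of 0.0241 in the permutation test, and r without the 2 most extreme tendons was 0.535. Ptger2 and the macrophage list had r = 0.53 at 21D (permutation test, adjusted p = 0.276) and 0.04 at 7D, n = 15 and 12. Ptger3 also had an unadjusted p under 0.05 with other lists. At 7D these were the Schwann cell list (r = 0.705) and the tendon list (r = -0.586). At 21D they included mast cells (r = 0.724), mural cells (0.691), neutrophils (0.572) and endothelial cells (0.546). The adjusted p of these pairs was 0.10 to 0.276 by permutation test. With dose means subtracted, Ptger3 with mast cells at 21D had r = 0.812 (permutation test, adjusted p = 0.00896). Among the receptors themselves, 0 of 42 pairs passed, a family of tests added after seeing the data, and the smallest adjusted p was 0.26 by permutation test.

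**Figure D4:**
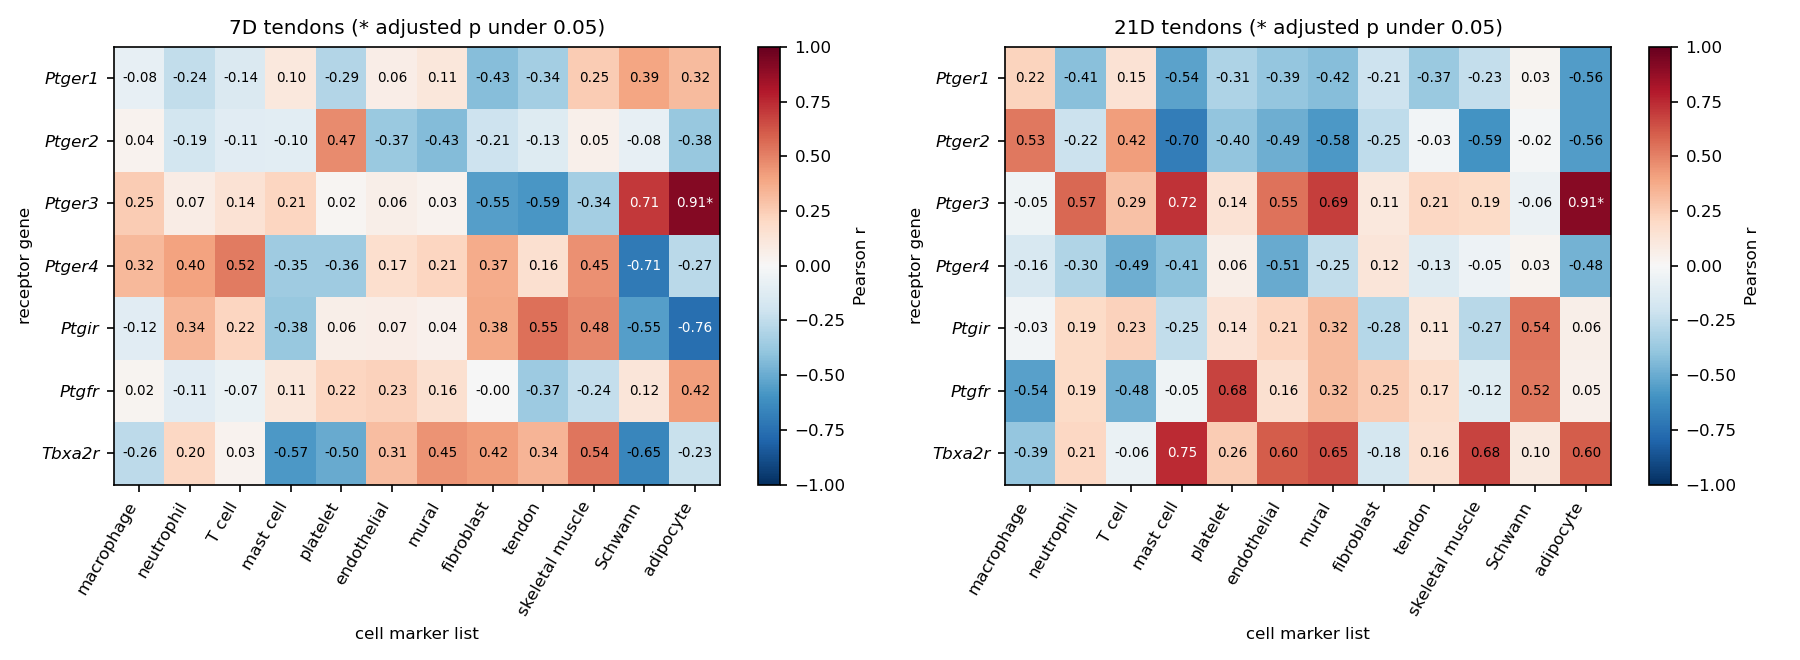
Pearson r between log2 CPM of each receptor (rows) and the mean log2 CPM of each marker list (columns) over 12 tendons at 7D and 15 tendons at 21D, with an asterisk where the adjusted p was under 0.05. Ptger3 with the adipocyte list carries the asterisk at both times (r = 0.914 and 0.913).

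The genes whose levels were most like those of each receptor were taken as the 3 with the highest Pearson r over the 27 repaired tendons. These values are descriptions chosen from 12558 genes, over tendons that share library and time. For Ptger3 they were Ces1d, Adipoq and Plin1 (r = 0.952, 0.951 and 0.948), of which Ces1d encodes a carboxylesterase of liver and fat. The r of Ptger3 with Ces1d was 0.909 within 7D and 0.926 within 21D.

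For Ptger2 they were Cd300e, Slc11a1 and Adap1 (r = 0.937, 0.932 and 0.931). Cd300e is a surface receptor of monocytes and Slc11a1 a metal transporter of phagocytes. At 21D the 5 tendons with Ptger2 above 10 CPM held 34.6 to 57.3 CPM of Cd300e, and the other 10 held 4.19 to 15.1 CPM. Within 21D the r of Ptger2 was 0.963 with Cd300e and 0.971 with Slc11a1, and within 7D it was 0.813 and 0.673. Control replicate 4 departed from this, with Cd300e at 10.5 CPM and Ptger2 at 0.0817 CPM.

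Macrophage markers also moved with the groups. The list summed to 393 to 1549 CPM in control tendons, 1380 to 3602 CPM at 7D and 822 to 2402 CPM at 21D, with none of its 11 genes at 0 in a whole group. With the mean log2 level of the macrophage list as a covariate, chosen after seeing the data, Ptger2 was higher than control by 2.88 ± 0.85 (SE) at 7D 0 mg/kg and 3.0 ± 0.78 at 21D 0 mg/kg, with edgeR adjusted p of 0.00586 and 0.00214. At 7D 6 mg/kg it was 2.16 ± 0.95 (edgeR adjusted p = 0.0622). Ptger2 followed this list weakly within a time, with r = 0.04 at 7D and 0.53 at 21D. The part of phagocytes in its rise was thus not tested.

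**Figure D5:**
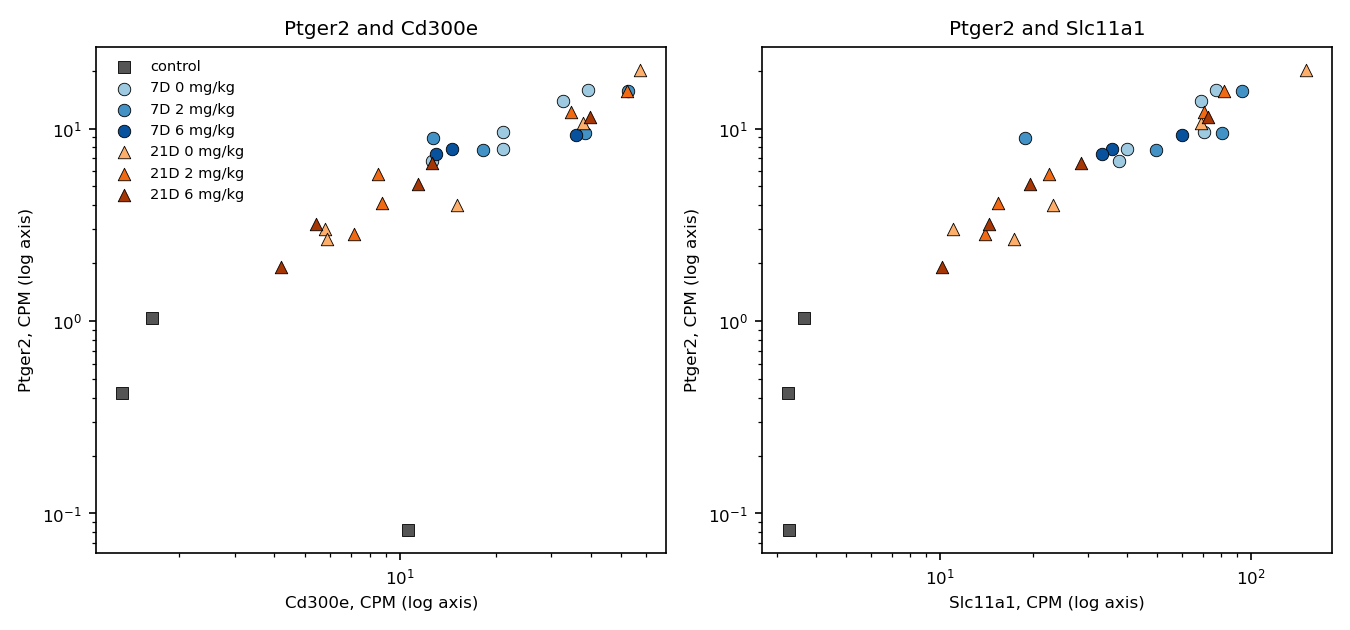
CPM of Ptger2 (vertical log axis) against CPM of Cd300e and of Slc11a1 (horizontal log axes), with 1 point per tendon coloured by group. Repaired tendons lie along a rising band, with 7D tendons at 6.75 to 15.8 CPM and 21D tendons at 1.90 to 20.1 CPM of Ptger2. Control tendons lie at 0.0817 to 1.04 CPM of Ptger2, and 1 of them, at 10.5 CPM of Cd300e, lies below the band.

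For the other receptors the likeness was weaker. For Ptgfr the most like genes were Pcsk5, Traf3ip2 and Psat1 (r = 0.885, 0.883 and 0.862). The r of Ptgfr with these genes was 0.363 to 0.667 within 7D and 0.587 to 0.752 within 21D. For Ptgir they were Dcaf15, Gramd1a and Sap25 (r = 0.823, 0.790 and 0.775). The highest r was 0.743 for Tbxa2r, with Ulk3, 0.715 for Ptger4, with Haghl, and 0.709 for Ptger1, with Furin, a protease that matures many secreted proteins.

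The other genes of prostanoid signaling were followed in 7 lists at 7D 0 mg/kg, where 35.8% of all genes were higher and 35.6% lower than in control tendons. Of the synthesis genes 11 were tested, and 4 were higher and 4 lower by edgeR's test at an adjusted p under 0.05. Ptgs2, the inducible cyclooxygenase, was higher by 2.86 ± 0.46 on the log2 scale (SE), Ptges, which makes prostaglandin E2, by 1.96 ± 0.27, and Pla2g4a, which frees arachidonic acid, by 1.12 ± 0.31. Ptges2 fell by 2.23 ± 0.24 and Fam213b, a prostaglandin F synthase, fell by 2.88 ± 0.33.

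Of 8 breakdown and transport genes 3 were higher and 3 lower. Hpgd, the enzyme that starts prostaglandin breakdown, was higher by 2.49 ± 0.50 (SE), and its uptake carrier Slco2a1 by 1.61 ± 0.46, while Ptgr2 fell by 1.89 ± 0.17. Receptor kinases and arrestins were higher in 5 of 7 cases and lower in 0, with Grk6 up by 1.15 ± 0.12 and Arrb2 by 1.30 ± 0.26. These proteins switch off G protein receptors of many kinds.

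Among the G protein pathways, 10 of 29 genes of the Gs and cAMP list were higher and 10 lower, and 11 of 24 of the Gq and calcium list were higher and 4 lower. In the Gi list, which holds Gi family subunits and also Rgs genes (regulators of G protein signaling), 7 of 13 were higher and 2 lower. The medians of these lists were 0.18, 0.37 and 0.77 on the log2 scale, against 0.05 over all genes. Pde8a, which breaks down cAMP, was higher by 1.49 ± 0.20 (SE) and the kinase subunits Prkar2a and Prkaca fell by 2.09 ± 0.21 and 1.28 ± 0.15. The Gi family subunits were split. Gnai2 and Gnai3 were higher by 0.98 ± 0.15 and 1.04 ± 0.15, while Gnao1 and Gnai1 had values of -2.40 ± 0.32 and -1.25 ± 0.51.

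Of 17 genes that respond to cAMP in many cells, 7 were higher and 3 lower, with a median of 0.79. Il6, an inflammatory cytokine at 0 to 0.401 CPM in control tendons and 2.49 CPM or more at 7D 0 mg/kg, was higher by 5.73 ± 1.21 (SE) and Has2, which makes hyaluronan, by 2.61 ± 0.56. Ppargc1a, a regulator of mitochondria in muscle, fell by 5.60 ± 0.75 and Vegfa by 2.23 ± 0.28, alongside the fall in skeletal muscle counts described above, whose part in these values was not tested.

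At 21D 0 mg/kg, where 32.2% of all genes were higher and 33.7% lower, 4 synthesis genes were higher and 3 lower, 2 and 3 of the breakdown and transport genes, and 6 and 0 of the kinases and arrestins. In the Gs, Gq and Gi lists 7, 12 and 7 genes were higher and 11, 5 and 2 lower, and 8 of the cAMP response genes were higher and 4 lower. Averaged over the doses, 21D was lower than 7D for 3 breakdown and transport genes and 3 kinases and arrestins, and higher for 0 of either list, beside 16.8% lower and 18.9% higher over all genes. The cAMP response genes had 6 higher and 1 lower at 21D.

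Across the 3 doses at 7D, 1 of 109 genes in these lists changed in edgeR at an adjusted p under 0.05, beside 2.05% of all genes. It was Pde4b, which breaks down cAMP, named here after its value was seen. Pde4b was at 23.0 ± 3.58, 10.3 ± 1.45 and 21.3 ± 2.40 CPM (SD, n = 5, 4 and 3) at 0, 2 and 6 mg/kg, and fell by 1.15 ± 0.24 on the log2 scale from 0 to 2 mg/kg (SE, edgeR adjusted p = 0.00766). From 0 to 6 mg/kg it differed by -0.12 ± 0.25. At 21D 0 of the 109 genes changed in edgeR. At an unadjusted p under 0.05 there were 16 of the 109 at 7D and 12 at 21D, and the share of all genes at that level was not taken.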

How the data were processed

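RNA from the right plantaris tendon of 30 rats was sequenced in 7 groups (control, and 0, 2 or 6 mg/kg at 7D or 21D). Groups were taken from the sample labels. The labels give 3 tendons at 7D 6 mg/kg, fewer than the exclusions in the study's methods imply, and the labels were followed. The authors trimmed reads with fastp, aligned them with STAR to RN6 with Ensembl release 95, counted reads in exons and deposited raw counts per gene. FastQC and edgeR are also named in the submitters' processing notes. A separate deposited table holds the authors' log2 fold changes and p-values, which were not used. Whether counting used strand is not given in the sources used here.

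Counts were tested as deposited in edgeR 4.0.16 (R 4.3.3) with TMM scaling, a quasi-likelihood fit over all 30 tendons with 1 mean per group, and Benjamini-Hochberg adjustment over the 12558 of 13124 genes with a mean of 3 CPM or more in any group. An adjusted p under 0.05 was called. The 6 receptors tested were read from that fit, and Tbxa2r, below the filter, from a fit with no filter. Log2 CPM used a prior count of 2. Correlations over 12 tendons (7D) and 15 tendons (21D) used 2-sided permutation tests with 100000 resamples. The 95% intervals come from the fit. No 2 tendons of the same group agreed within sampling noise. The scripts were tested on simulated data. Alternatives were RLE or library size scaling, TMM without muscle genes, other filters, the replicate number as a block, a muscle covariate, only the groups compared, limma-voom (limma 3.58.1), DESeq2 1.42.0 and leaving out each tendon. Named genes were all 7 receptors, in each pathway list up to 3 higher and 3 lower genes with the smallest adjusted p at 7D 0 mg/kg against control, from which examples were taken, and the 3 genes most like each receptor. The receptors and lists were chosen with earlier results of these data known. Totals of 12405741 to 49909374 counts per tendon set the precision, and the floor of 3 counts covers counting error only. Some genes of prostaglandin D2 and prostacyclin synthesis were not analysed here.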

Additional observations from a re-analysis of the deposited data

Results flagged for a closer look

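In 35 sets of values (each receptor in each group of 4 or 5 tendons), 3 values, from 2 tendons, stood apart from the rest of their group by Dixon's criterion for the gap to the nearest tendon over the whole range (above 0.71 for 5 tendons). Chance alone does this in about 1 in 20 sets. Ptger4 was at 15.3 CPM in 21D 2 mg/kg replicate 3, and the next tendon of that group was at 10.1 CPM. Ptgfr was at 24.8 CPM in the same tendon, where the next was at 11.3 CPM, and at 15.7 CPM in 21D 0 mg/kg replicate 3, where the next was at 11.1 CPM. Without the former tendon Ptgfr no longer differed from control at 21D 2 mg/kg in edgeR, and without the latter it was lower at 21D than at 7D at 0 mg/kg.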

How the results depend on the processing

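Of the log2 fold changes, 377 of the values under other settings kept their direction and call, 37 lost the call, 5 gained it and 12 changed sign, and with 1 tendon left out 411 kept both, 17 lost the call, 1 gained it and 3 changed sign. Of the counts of receptors, 115 stayed within 1.5 times the reported count under other settings and 15 moved further. The cause of these changes was not tested.

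With library size alone, 5 receptors were called at 21D 6 mg/kg against control, and Ptger3 and Ptgir turned to 0.12 and 0.44 there. The median over all genes also moved, to 0.51 from 0.01 with TMM. The share of all genes called was not taken under this or the other settings, so these counts describe the receptors only. With the muscle share as a covariate, 0 receptors were called against control at 7D 2 mg/kg and 0 at 7D 6 mg/kg, and between the times 1, 0 and 1 at 2 mg/kg, 6 mg/kg and averaged over doses. That covariate also turned Ptgir to -0.036 at 7D 2 mg/kg, Ptger3 to 0.081 at 21D 6 mg/kg, and Ptger1 and Ptger2 to 0.024 and 1.09 between the times. With only the groups compared, 1 receptor was called between the times at each dose. With limma-voom, 3, 3 and 2 were called against control at 7D 2 mg/kg, 7D 6 mg/kg and 21D 2 mg/kg, and with limma-voom and DESeq2 1 was called between the times at 0 mg/kg.

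The adipocyte covariate was added after its list was seen to go with Ptger3. It gave Ptger3 -0.26, -0.13 and -0.31 at 7D and -0.075 at 21D 0 mg/kg against control, and 0.025 between the times. The macrophage covariate gave Ptger2 0.17 between the times. Of the correlated pairs, 0 remained at 7D without the 2 most extreme tendons, 2 were found at 21D after subtracting dose means (the second was Ptger3 with mast cells, r = 0.812) and 0 at 21D with summed CPM.

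With 1 tendon left out, the count between the times ran from 0 to 1 at 0 mg/kg, 1 to 2 at 2 mg/kg and 1 to 3 at 6 mg/kg. At 21D 6 mg/kg against control, Ptger3 ran from -0.63 to 0.23 and Ptgir from -0.20 to 0.040, being positive without control replicate 3, and Ptgir was 0.0044 without 21D 6 mg/kg replicate 3. Call losses at 1 tendon for Ptger3, Ptgir and Ptgfr stand beside those results, and Ptgir at 7D 2 mg/kg was also lost without control replicate 2 or 7D 2 mg/kg replicates 2 or 3, and at 7D 6 mg/kg without replicate 4. Ptgfr at 21D 0 mg/kg was called without control replicate 3 (1.02, edgeR adjusted p = 0.0333).

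The labels number the replicates in each group, but the numbers did not pair the tendons: over 76 pairs with the same number the correlation of deviations from the group means had a median of 0.00685, and 6 tendons correlated best with their own number. With the replicate block 1 receptor, Ptgfr, was called between the times at 0 mg/kg. Ptger2 and Ptger3 rest on 1 to 63 counts in control tendons, and a level under 3 counts is not resolved in any tendon.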
